A study of Homo sapiens with 10 samples.

Results

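Lysosomal enzymes and membrane proteins were followed in Caco-2 cells, a human colon carcinoma line, as a set of 39 genes chosen by symbol from the 60554 genes of the tables. The set holds 8 peptidases, 11 glycosidases, 4 sulfatases and sulfamidases, 5 lipid and phosphate hydrolases, 3 activators and other lumenal proteins, 6 membrane proteins, the regulator TFEB and the targeting enzyme GNPTAB. All cells came from 1 puromycin-selected clone that expresses dCas9-KRAB, a Cas9 that does not cut and carries a repressor domain. They were then infected with a hygromycin-marked lentivirus that carried guide RNA g1 or g2 against the lncRNA LHFPL3-AS2, or the empty plasmid (gCtl). RNA was sequenced from the 3' end in 10 libraries, 5 of gCtl, 3 of g1 and 2 of g2. The model is thus 1 clone of 1 tumour line, grown as monolayers, and the question was which genes differ between the guide libraries and gCtl.

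The lysosome is the acidic compartment in which proteins, glycans, lipids and glycogen are broken down. Most of its soluble hydrolases are made in the endoplasmic reticulum, receive a mannose 6-phosphate tag in the Golgi and are carried by receptors to endosomes, while membrane proteins such as the LAMPs line and protect the limiting membrane. Many of the genes carry an E-box of the CLEAR type, the sequence bound by TFEB and its relatives, which raise lysosomal genes together during starvation or lysosomal stress. In enterocytes the compartment handles endocytosed and autophagic cargo.

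Libraries held 3838803 to 8730468 estimated counts. Libraries of the same group differed by more than sampling noise in each of 14 pairs, and nothing in the labels says whether they came from separate cultures, so the p-values below measure the spread between these libraries, which may be technical. The targeted LHFPL3-AS2 was at 0.841 to 3.73 RPM (counts per 1000000 counts of the library) in gCtl, 2.03 to 3.95 in g1 and 2.16 and 6.01 in g2, so no decrease was seen in the libraries labelled g1 and g2. These values rest on 4.39 to 44.03 counts per library, and a decrease may not be detectable at this depth. Every direction below is that of the labels. The 8 epithelial markers, among them EPCAM and VIL1, were each above 3 RPM in at least 1 library and summed to 1581 to 1995 RPM in gCtl, 1519 to 1809.6 in g1 and 1501 and 1536 in g2. LGALS4 passed 3 RPM only in g2 replicate 1 (6.52), and was at 1.45 to 2.75 in gCtl. In g2 KRT20 was above gCtl, at 8.97 and 9.97 against 1.08 to 4.22 RPM. KRT18 was below it, at 248 and 279 against 316 to 677 RPM. The 7 immune markers summed to 13.6 to 33.2 RPM, mostly LYZ, which intestinal epithelium can also express, and the 6 fibroblast markers to 5.23 to 10.9 RPM, and for both lists the range in gCtl overlapped those in g1 and g2. The immune marker CD14 did not overlap, at 2.47 to 4 RPM in gCtl, 0.916 to 1.56 in g1 and 0.653 and 0.273 in g2. Mitochondrial transcripts took 18.3 to 23.97% of counts in gCtl, 19.0 to 20.6% in g1 and 16.8% and 12.0% in g2, so the g2 libraries stood apart in composition. The part of these differences in the results below was not tested.

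The promoters that hold the CLEAR core are shown because they are the one regulatory feature of the set that the data here can be set beside. RefSeq promoters (GRCh38.p14, 250 bases before to 50 after the start of the gene) were at hand for 30 of the 39 genes. CACGTG, a palindrome that reads the same on both strands, stood in 7 of them (23.3%), against 7.43% of all 27305 promoters and 10.2% of those of the tested genes. The longer palindrome, with GT before and AC after it, stood in those of GAA and MCOLN1 (6.67% of 30) and in 0.381% of all promoters. In each line 80 bases upstream of that start site are given 5′ to 3′ on the strand of the gene, with capitals for CACGTG and any adjoining base of the longer palindrome.
GAA (chr17:80101490-80101569, plus strand): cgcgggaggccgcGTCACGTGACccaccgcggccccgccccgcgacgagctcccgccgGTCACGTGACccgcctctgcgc
CTSA (chr20:45891255-45891334, plus strand): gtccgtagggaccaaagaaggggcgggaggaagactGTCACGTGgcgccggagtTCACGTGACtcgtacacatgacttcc
MCOLN1 (chr19:7522544-7522623, plus strand): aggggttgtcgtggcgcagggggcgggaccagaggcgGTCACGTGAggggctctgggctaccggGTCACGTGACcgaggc
LAMP1 (chr13:113297034-113297113, plus strand): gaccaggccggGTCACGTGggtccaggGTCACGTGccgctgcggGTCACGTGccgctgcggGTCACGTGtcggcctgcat
NEU1 (chr6:31862906-31862985, minus strand): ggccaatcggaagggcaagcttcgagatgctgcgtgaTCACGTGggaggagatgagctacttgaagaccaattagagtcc
CTSD (chr11:1763931-1764010, minus strand): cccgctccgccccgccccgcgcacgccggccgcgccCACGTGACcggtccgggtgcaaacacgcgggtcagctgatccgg
CLN3 (chr16:28492078-28492157, minus strand): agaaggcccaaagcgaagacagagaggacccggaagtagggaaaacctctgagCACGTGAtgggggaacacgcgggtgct

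GAA and MCOLN1 each held 2 matches in the 80 bases shown, and in GAA both were the longer palindrome. CTSA also held 2, and LAMP1 4 at near-regular steps. These matches are letters in a window and not binding sites, and their absence from another promoter says only that the letters are not in that window. Of the 7, GAA and CTSA were lower in the libraries labelled knockdown, CTSD, NEU1, LAMP1 and CLN3 were not called there, and MCOLN1 was too low to test. NEU1 and LAMP1 were called lower with g2 alone. Among members with a promoter, CACGTG stood in 2 of 10 that were called lower in the knockdown comparison (20%). It stood in 4 of 16 that were tested and not called there (25%). These shares depend on the comparison chosen, since NEU1 and LAMP1 are counted among those not called.

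Levels were compared between genes per length, as TPM computed here from the counts and transcript lengths. In gCtl, PSAP (prosaposin, the precursor of the saposins that help enzymes reach their lipid substrates) stood highest at 862 ± 134 TPM (SD, n = 5), 43.1% of the summed TPM of the set. LAMP1, a main glycoprotein of the limiting membrane, followed at 140.4 ± 17.7 and NPC2, the lumenal cholesterol carrier, at 123 ± 12.5. CTSH, CTSB, NEU1 and CTSC lay between 59.6 and 91.2 TPM. At the other end TFEB was at 0.768 ± 0.284 TPM, ARSA at 1.21 ± 1.12 and ARSB at 1.37 ± 0.263. The order is coarse, since 35 of the 38 pairs of neighbours in it overlapped over the gCtl libraries. The gaps after PSAP, after NPC2 and after NEU1 were the 3 without overlap. Reads that start at the 3' end do not grow with transcript length, so dividing by length places long transcripts lower in this order. TPM also depends on which transcript a read was assigned to. By RPM, PSAP and LAMP1 were again highest, while CTSB ranked 3 and NPC2 6. GNPTAB ranked 10 by RPM against 19 by TPM, and ARSA was lowest at 0.714 RPM.

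A gene was tested if it was above 3 RPM in at least 20% of the libraries, and 34 members passed. Of these, 32 passed in gCtl and also in the libraries labelled knockdown, while GAA and CTSL passed only through gCtl. CTSZ, MAN2B1, ARSA, MCOLN1 and TFEB did not pass. CPM below are counts per 1000000 counts of the tested genes after TMM scaling, fold changes are log2 from edgeR's quasi-likelihood test, and a call took a fold of 1.5 or more together with an adjusted p no higher than 0.05. In bulk RNA, fewer cells of a kind and less RNA per cell cannot be told apart.

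Across the 5 libraries labelled knockdown (g1 and g2 together), 12 of the 34 tested members were called lower than in gCtl and 0 higher, where 11.1% of all tested genes were called lower and 8.1% higher. The 12 were the peptidases CTSA and CTSH, the glycosidases GAA, FUCA1, GLA and GLB1, the sulfamidase SGSH, the lipid hydrolases SMPD1, ASAH1 and PPT1, progranulin (GRN) and the membrane protein SCARB2. No member was higher at an unadjusted p under 0.05 in edgeR either, and DESeq2 and limma called 0 higher as well. The fold change was negative in 29 of 34 members with a median of -0.47, against a median of 0.02 over all 11640 tested genes. Since GAA and CTSL could pass the filter only through gCtl, the fit was also run on all 39 members without it, and the same 12 were called, with 30 of 39 estimates negative and a median of -0.44 (7.8% of 16904 genes called lower). Over all scalings, filters, tests and left-out libraries the median of the members lay between -0.59 and -0.41, and that of all genes between -0.09 and 0.05. For 10 members every knockdown library lay below every gCtl library, as it did for 8.32% of all tested genes. For 0 members every knockdown library lay above, against 7.21%.

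The summed level of the 34 tested members was 3979.7, 4437, 4696, 4132 and 4890.5 CPM in the gCtl libraries, 4049.9, 3942 and 3376 in g1, and 3192 and 3352 in g2. One g1 library lay inside the gCtl range and all others below it. The summed level of the 33 members other than PSAP was 2524, 2614, 2762, 2478 and 2627 CPM in the gCtl libraries, 2213, 2285 and 1887 in g1, and 1847 and 1764 in g2. Every g1 and g2 library lay below the lowest gCtl library. PSAP alone, at 1455, 1824, 1934, 1654 and 2263 CPM in the gCtl libraries, 1837, 1656 and 1489 in g1, and 1344 and 1588 in g2, overlapped between the groups, with a fold change in the knockdown comparison of -0.21 (SE 0.14, adjusted p = 0.315).

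Each guide was also set against gCtl. With g1, 12 members were called lower and 0 higher (10.5% and 6.33% of all tested genes), and again 0 were higher at an unadjusted p under 0.05, by DESeq2 or by limma. With g2, 12 were called lower and 1 higher (12.2% and 11.5% of all tested genes), and without g2 replicate 2 these counts were 8 and 0. The median fold change was -0.49 with g1 and -0.48 with g2, and 28 and 29 of 34 were negative. All g1 libraries lay below all gCtl libraries for 13 members (14.1% of all tested genes) and both g2 libraries did for 18 (18.8%), while both lay above gCtl for 2, ARSB and GUSB (19.6%). Both guide comparisons use the same 5 gCtl libraries, so their values stand side by side here and are no check on each other. CTSA, CTSH, GLA, GAA, FUCA1, SMPD1 and GRN were called with each guide, HEXA, MANBA, SGSH, PPT1 and SCARB2 with g1, and GLB1, NEU1, ASAH1, ACP2, LAMP1 and, in the other direction, GUSB with g2.

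**Figure D1:**
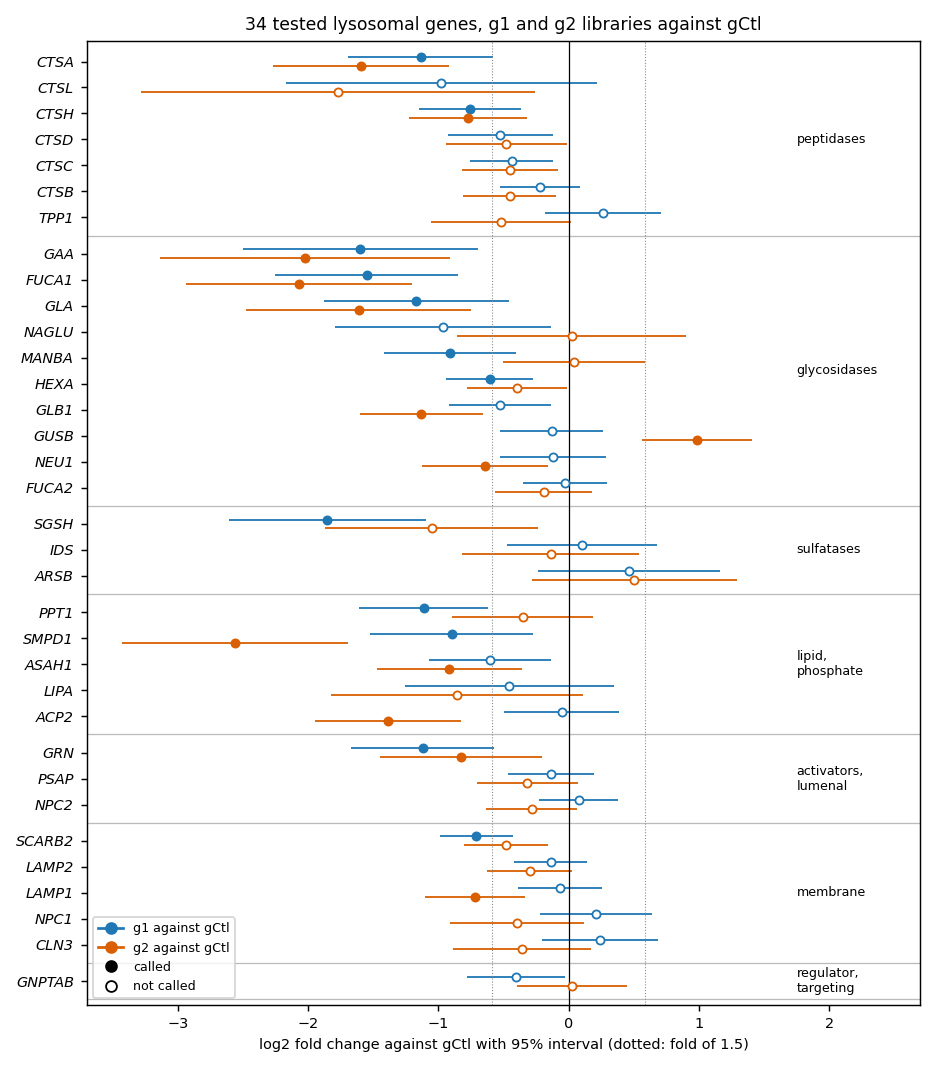
Log2 fold change against gCtl with its 95% interval for the 34 tested members, g1 in blue and g2 in orange, by role; filled points were called and dotted lines mark a fold of 1.5. Most points lie left of 0, GAA, FUCA1, CTSA and GLA with both guides, while GUSB with g2 lies to the right at 0.99.

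Among the peptidases 2 of 7 tested members were lower in the knockdown libraries. CTSA (ENSG00000064601.16, chr20:45890144-45898820 on GRCh38, GENCODE 29), the carboxypeptidase that also shields beta-galactosidase and NEU1 in a complex, was at 23.5, 38.4, 39.998, 35.1 and 21.8 CPM in the gCtl libraries, 16.2, 15.1 and 12.3 in g1, and 13.7 and 7.57 in g2. All 5 guide libraries lay below the lowest gCtl library, and the fold change was -1.30 (SE 0.24, adjusted p = 0.00172) in the knockdown comparison, -1.14 (SE 0.26, adjusted p = 0.00713) with g1 and -1.59 (SE 0.32, adjusted p = 0.00244) with g2. The last 500 bases of CTSA overlap PLTP on the opposite strand, which held 11307 counts over the libraries against 798 for CTSA, and the strand setting of the counting is not given in the sources used here, so reads of the pair cannot be told apart. PLTP itself had a fold change of 0.27 (adjusted p = 0.244) with g1 and -0.68 (adjusted p = 0.0149) with g2. CTSH, an aminopeptidase of the papain family, was at 183, 253, 237, 209 and 253 CPM in the gCtl libraries, 126, 177 and 101 in g1, and 152 and 115 in g2, with each guide library under the lowest gCtl value. Its fold change was -0.76 (SE 0.16, adjusted p = 0.00399) in the knockdown comparison, -0.76 (adjusted p = 0.00956) with g1 and -0.77 (adjusted p = 0.0154) with g2. Without g1 replicate 3 the g1 call was lost (-0.57, adjusted p = 0.0659), and without g2 replicate 2 the g2 call (-0.58, adjusted p = 0.159).

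CTSD, the main aspartic protease of lysosomes, was at 40.2, 40.6, 48.9, 36.2 and 49.8 CPM in the gCtl libraries, 38.8, 25.5 and 25.8 in g1, and 28.2 and 33.9 in g2. One g1 library lay inside the gCtl range, and the fold change of -0.51 (SE 0.16, adjusted p = 0.0361) passed the p threshold but not the fold of 1.5. CTSC, a dipeptidyl peptidase that activates other proteases, did likewise at -0.44 (SE 0.13, adjusted p = 0.0249). CTSB and TPP1 were not called in any of the comparisons with gCtl, with knockdown fold changes of -0.31 (adjusted p = 0.107) and 0.001 (adjusted p = 0.998). CTSL had a larger estimate of -1.24 (SE 0.50, adjusted p = 0.0846) and was not called, on 2 to 24 counts per library. Its annotated pseudogenes together held more counts (427) than CTSL (130). Over the alternative settings and left-out libraries its estimate ranged from -1.64 to 0.08, so its level and direction are uncertain. CTSZ, which was not tested, was at 1.56, 2.68, 2.52, 2.25 and 4.23 RPM in the gCtl libraries, 1.74, 1.08 and 0.916 in g1, and 0.489 and 2.05 in g2.

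Glycosidases, which strip sugars from glycoproteins, glycolipids and glycogen, held 4 of the 12 calls. GAA (chr17:80101556-80119879), the acid alpha-glucosidase that degrades glycogen and is lost in Pompe disease, was at 7.82, 6.39, 6.84, 9.41 and 4.98 CPM in the gCtl libraries, 1.72, 1.26 and 3.61 in g1, and 1.37 and 2.005 in g2. No guide library reached the lowest gCtl library, and the fold change was -1.76 (SE 0.36, adjusted p = 0.00349) in the knockdown comparison, -1.60 (adjusted p = 0.0155) with g1 and -2.02 (adjusted p = 0.011) with g2. It rests on 4 to 26 counts per library, and it passed the filter through gCtl alone, a route that only a gene lower with the guides can take at this level. Without g1 replicate 1 or g1 replicate 2 the g1 call was lost (log2 fold changes -1.43 to -1.36, adjusted p 0.0635 to 0.0647), as was the g2 call without g2 replicate 1 (-1.83, adjusted p = 0.0526). FUCA1 (chr1:23845077-23868294), the alpha-L-fucosidase, was at 39.5, 31.1, 29.5, 28.96 and 13.6 CPM in the gCtl libraries, 13.7, 8.18 and 7.22 in g1, and 8.76 and 4.901 in g2. gCtl replicate 5 was the low one and just under g1 replicate 1, and the others did not overlap. The fold change of FUCA1 was -1.73 (SE 0.30, adjusted p = 0.00109), with -1.55 (adjusted p = 0.00449) for g1 and -2.07 (adjusted p = 0.00218) for g2, and it stayed called with any single library left out. GLA, the alpha-galactosidase A of Fabry disease, was at 18.2, 12.5, 18.2, 19.5 and 9.7002 CPM in the gCtl libraries, 6.63, 7.23 and 6.86 in g1, and 7.66 and 2.67 in g2. Its libraries did not overlap between gCtl and the guides, with -1.33 (SE 0.30, adjusted p = 0.00548) in the knockdown comparison, -1.17 (adjusted p = 0.022) with g1 and -1.61 (adjusted p = 0.00961) with g2. The g1 call of GLA was lost without gCtl replicate 1, gCtl replicate 3, gCtl replicate 4, g1 replicate 1, g1 replicate 2 or g1 replicate 3 (log2 fold changes -1.20 to -1.08, adjusted p 0.051 to 0.0772), and the g2 call without g2 replicate 2 (-1.01, adjusted p = 0.131).

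GLB1, the beta-galactosidase whose activity serves as a senescence stain, was at 127, 125, 149, 117 and 122 CPM in the gCtl libraries, 94.2, 113 and 60.9 in g1, and 68.7 and 48.8 in g2. Every guide library lay below gCtl, g1 replicate 3 and both g2 libraries the most, with -0.74 (SE 0.19, adjusted p = 0.0125) for the knockdown comparison, -0.53 (adjusted p = 0.0537) for g1 and -1.13 (adjusted p = 0.00216) for g2. HEXA, the alpha subunit of the beta-hexosaminidase that clears ganglioside GM2, was at 66.7, 67.6, 92.1, 73.8 and 65.3 CPM in the gCtl libraries, 41.2, 49.1 and 53.6 in g1, and 58.6 and 52.6 in g2. It did not overlap between gCtl and the guides, but its knockdown fold change of -0.52 (SE 0.14, adjusted p = 0.0167) fell short of 1.5-fold and only g1 was called, at -0.61 (adjusted p = 0.0142). That call was lost without gCtl replicate 3 or g1 replicate 1 (log2 fold changes -0.51 to -0.51, adjusted p 0.0387 to 0.0752).

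MANBA, the beta-mannosidase, was at 14.9, 18.9, 28.9, 20.996 and 21.2 CPM in the gCtl libraries, 11.3, 12.3 and 10.3 in g1, and 24.9 and 18.7 in g2. The g1 libraries lay below all others and the g2 libraries inside the gCtl range, with -0.91 (SE 0.24, adjusted p = 0.0148) for g1 and 0.04 (SE 0.26, adjusted p = 0.917) for g2. The g1 call was lost without g1 replicate 3 (-0.82, adjusted p = 0.0729). NEU1, the lysosomal sialidase, was at 152, 186, 213, 167 and 176 CPM in the gCtl libraries, 196, 178 and 120.4 in g1, and 146 and 83.3 in g2. Both g2 libraries and g1 replicate 3 lay below gCtl, and the g2 call, -0.64 (SE 0.23, adjusted p = 0.0492), was lost without gCtl replicate 2, gCtl replicate 3, gCtl replicate 4, gCtl replicate 5, g1 replicate 1, g1 replicate 2 or g2 replicate 2 (log2 fold changes -0.67 to -0.29, adjusted p 0.052 to 0.466). FUCA2 and NAGLU were not called, at -0.09 (adjusted p = 0.672) and -0.48 (adjusted p = 0.357) in the knockdown comparison.

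GUSB (chr7:65960684-65982314), the beta-glucuronidase that is also a common qPCR reference, was the one member called higher. It was at 36.9, 38.1, 44.5, 33.7 and 42.47 CPM in the gCtl libraries, 36.1, 34.6 and 36.7 in g1, and 55.5 and 99.4 in g2, with both g2 libraries above all others and g2 replicate 2 the highest. The fold change was -0.13 (SE 0.19, adjusted p = 0.67) with g1 and 0.99 (SE 0.20, adjusted p = 0.00253) with g2, and without g2 replicate 2 the latter was not called (0.50, adjusted p = 0.125). Its 11 annotated pseudogenes held 1079 counts against 1769 for GUSB. With their counts added to GUSB the g2 fold change was 0.73 (adjusted p = 0.00835), so near-identical copies limit this value.

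**Figure D2:**
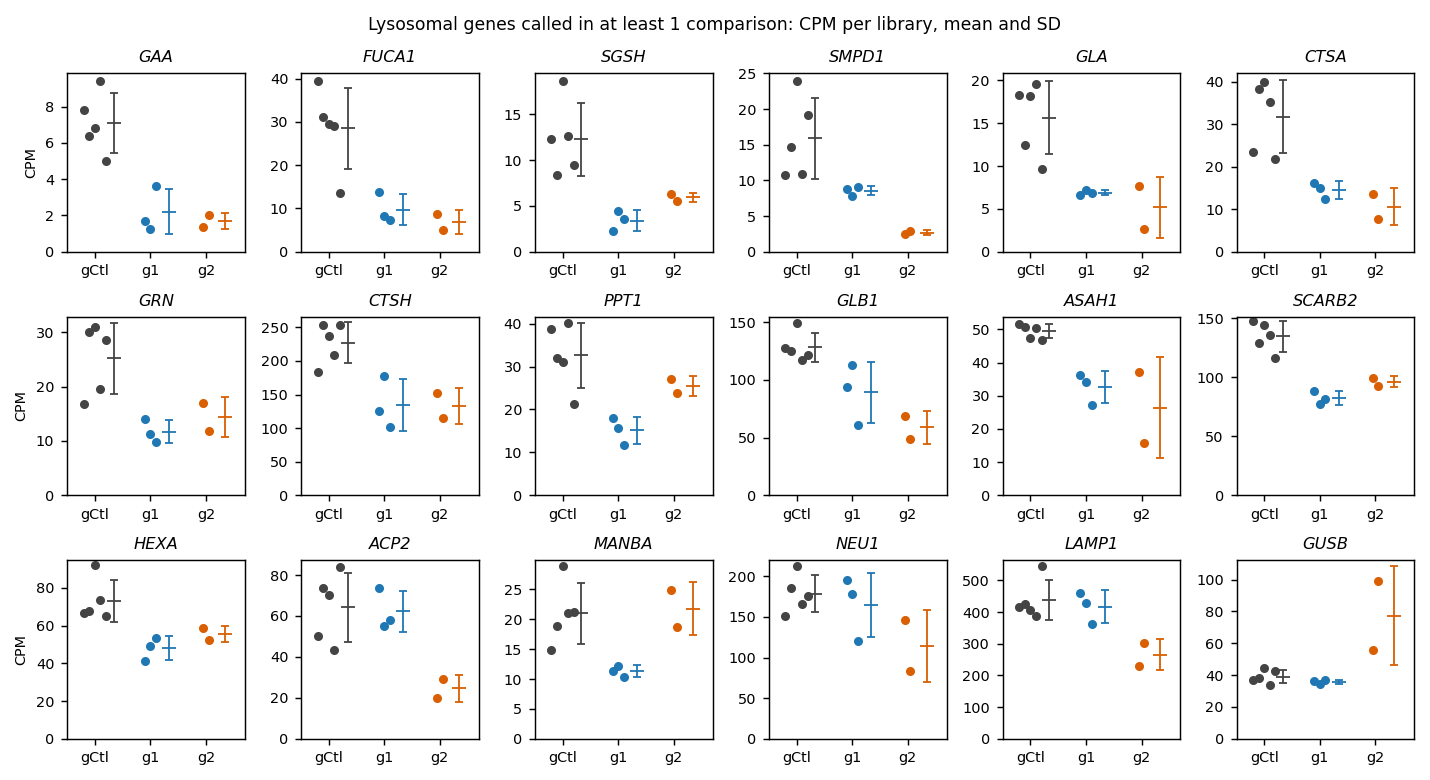
CPM per library of the 18 members called in at least 1 comparison, on axes that start at 0; points are libraries, and the bar beside each group is its mean with the SD. The g1 and g2 points of GAA, SGSH, GLA and CTSA lie below all gCtl points, both g2 points of ACP2 and LAMP1 do so, and those of GUSB lie above the rest.

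Of the sulfatases and sulfamidases, which remove sulfate from glycosaminoglycans and sulfolipids, 1 of 3 tested members changed. SGSH (chr17:80206716-80220923), the heparan N-sulfatase of Sanfilippo syndrome, was at 12.3, 8.34, 18.7, 12.7 and 9.44 CPM in the gCtl libraries, 2.21, 4.403 and 3.61 in g1, and 6.29 and 5.57 in g2. All guide libraries were below gCtl, and the fold change was -1.48 (SE 0.32, adjusted p = 0.00436) in the knockdown comparison and -1.85 (SE 0.36, adjusted p = 0.00235) with g1, while with g2 it was -1.05 (SE 0.39, adjusted p = 0.0548) and not called. Its last 500 bases overlap CARD14 on the other strand, which held 255 counts against 295.5 for SGSH and had a knockdown fold change of -0.67 (adjusted p = 0.072). IDS, which acts on dermatan and heparan sulfate, and ARSB, which acts on dermatan and chondroitin sulfate, were at 0.01 (adjusted p = 0.982) and 0.48 (adjusted p = 0.226), and ARSB was the tested member with the largest positive estimate in the knockdown comparison. ARSA, untested, lay between 0 and 8.08 counts per library.

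Of the 5 lipid and phosphate hydrolases 3 were called lower in the knockdown comparison, 2 with g1 and 3 with g2, and all 5 estimates were negative in each of these comparisons. Their summed CPM was 159.8, 178, 180.3, 155 and 175 CPM in the gCtl libraries, 140.1, 119 and 112 in g1, and 91.9 and 74.4 in g2, with all of g2 under g1 and all of g1 under gCtl. SMPD1 (chr11:6390431-6394998), the acid sphingomyelinase whose loss causes Niemann-Pick disease types A and B, was at 10.8, 14.7, 23.9, 10.9 and 19.1 CPM in the gCtl libraries, 8.84, 7.86 and 9.03 in g1, and 2.46 and 2.896 in g2. The groups formed 3 steps without overlap, and the fold change was -1.35 (SE 0.36, adjusted p = 0.0148) in the knockdown comparison, -0.90 (SE 0.30, adjusted p = 0.0424) with g1 and -2.56 (SE 0.41, adjusted p = 0.000495) with g2. The g1 call was lost without gCtl replicate 2, gCtl replicate 3, gCtl replicate 5, g1 replicate 1, g1 replicate 2 or g1 replicate 3 (log2 fold changes -0.93 to -0.70, adjusted p 0.0637 to 0.123) and in limma with pseudocounts of 1 and 0.1 (adjusted p = 0.0525 and 0.0603), and the g2 call held without each library in turn. ASAH1, the acid ceramidase that takes the next step to sphingosine, was at 51.8, 50.6, 47.4, 50.3 and 46.9 CPM in the gCtl libraries, 36.3, 34.3 and 27.1 in g1, and 37.2 and 15.6 in g2. gCtl was tight at 46.9 to 51.8 and all guide libraries were lower, g2 replicate 2 the most, with -0.72 (SE 0.20, adjusted p = 0.0176) in the knockdown comparison, -0.60 (adjusted p = 0.0643) with g1 and -0.91 (adjusted p = 0.018) with g2. Without g2 replicate 2 the knockdown value (-0.54, adjusted p = 0.0133) was under 1.5-fold and the g2 call was lost (-0.41, adjusted p = 0.237).

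PPT1, the thioesterase that removes palmitate from proteins, was at 38.7, 31.97, 31.1, 40.2 and 21.2 CPM in the gCtl libraries, 17.9, 15.7 and 11.7 in g1, and 27.1 and 23.8 in g2. The g1 libraries were below all gCtl libraries, while g2 overlapped gCtl, with -1.11 (SE 0.23, adjusted p = 0.00413) for g1, -0.35 (SE 0.26, adjusted p = 0.322) for g2 and -0.76 (SE 0.24, adjusted p = 0.0299) for the knockdown comparison. The last was lost without gCtl replicate 1, gCtl replicate 2, gCtl replicate 3, gCtl replicate 4, g1 replicate 1, g1 replicate 2 or g1 replicate 3 (log2 fold changes -0.78 to -0.61, adjusted p 0.0528 to 0.0832). PPT1 overlaps CAP1 on the opposite strand over its last 500 bases, with 8365 counts for CAP1 against 923 for PPT1, and CAP1 had a knockdown fold change of 0.40 (adjusted p = 0.0678). ACP2, the lysosomal acid phosphatase, was at 50.3, 73.7, 69.997, 43.4 and 83.9 CPM in the gCtl libraries, 73.9, 55.03 and 57.8 in g1, and 19.98 and 29.2 in g2. Only g2 lay below gCtl, at -1.39 (SE 0.26, adjusted p = 0.00172) against -0.05 (SE 0.21, adjusted p = 0.886) with g1. LIPA, the acid lipase that frees cholesterol from its esters, was not called at -0.60 (SE 0.33, adjusted p = 0.197).

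Of the 3 activators and lumenal proteins 1 was called. GRN, progranulin, whose fragments act in the lysosome and whose haploinsufficiency causes frontotemporal dementia, was at 16.8, 30.03, 31.1, 19.5 and 28.6 CPM in the gCtl libraries, 13.99, 11.3 and 9.75 in g1, and 16.97 and 11.8 in g2. The g1 libraries lay below gCtl and g2 replicate 1 just above its lowest value, with -0.99 (SE 0.22, adjusted p = 0.0059) in the knockdown comparison, -1.12 (adjusted p = 0.00702) with g1 and -0.82 (adjusted p = 0.0486) with g2. The g2 call was lost without gCtl replicate 2, gCtl replicate 3, gCtl replicate 5, g1 replicate 1, g1 replicate 2 or g2 replicate 2 (log2 fold changes -0.82 to -0.58, adjusted p 0.0535 to 0.312). NPC2 was at -0.06 (adjusted p = 0.797) and, like PSAP, was not called in any of the comparisons.

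Membrane proteins had 1 call among 5 tested members. SCARB2 (LIMP-2, which brings glucocerebrosidase to the lysosome) was at 148, 129, 145, 136 and 116 CPM in the gCtl libraries, 88.6, 77.4 and 81.3 in g1, and 99.9 and 92.9 in g2. No guide library reached gCtl, and the fold change was -0.61 (SE 0.12, adjusted p = 0.00301) in the knockdown comparison, -0.71 (SE 0.13, adjusted p = 0.00206) with g1 and -0.48 (SE 0.15, adjusted p = 0.029) with g2, the last under 1.5-fold. Its knockdown value lay near the fold threshold and dropped under it without gCtl replicate 1, g1 replicate 2 or g1 replicate 3 (log2 fold changes -0.58 to -0.57, adjusted p 0.008 to 0.0104). LAMP1 was at 417, 425, 408, 389 and 547 CPM in the gCtl libraries, 462, 428 and 361 in g1, and 230.4 and 301 in g2. gCtl replicate 5 was high, g1 overlapped gCtl and both g2 libraries were lower, with -0.07 (SE 0.15, adjusted p = 0.791) for g1 and -0.72 (SE 0.18, adjusted p = 0.00958) for g2, the latter lost without g2 replicate 1 (-0.57, adjusted p = 0.0593). LAMP2, which also serves chaperone-mediated autophagy, was at 94.97, 79.2, 96.3, 94.8 and 95.95 CPM in the gCtl libraries, 85.4, 83.6 and 82.7 in g1, and 83.5 and 66.8 in g2. It was not called, at -0.20 (SE 0.12, adjusted p = 0.244) in the knockdown comparison, where its interval of -0.46 to 0.06 leaves out a 1.5-fold decrease. With g2 the interval of -0.62 to 0.03 includes such a decrease. NPC1, which exports cholesterol with NPC2, and CLN3, of juvenile Batten disease, were at -0.001 (adjusted p = 0.997) and 0.03 (adjusted p = 0.931). The calcium channel MCOLN1 was at 0.781, 1.64, 2.102, 1.38 and 2.16 RPM in the gCtl libraries, 0.971, 1.399 and 1.06 in g1, and 2.604 and 3.45 in g2 and was not tested.

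TFEB, the transcription factor of the CLEAR network, was at 0.781, 0.958, 1.81, 0.49998 and 1.23 RPM in the gCtl libraries, 1.91, 0.8604 and 0.6895 in g1, and 0.163 and 0.546 in g2, on 1 to 11 counts per library. In a fit without the filter its fold change was -0.33 (SE 0.59, adjusted p = 0.743), and a change was not detectable at this depth. GNPTAB, which starts the mannose 6-phosphate tag, was at 119, 95.6, 99.7, 101 and 83.9 CPM in the gCtl libraries, 66.3, 93.7 and 66.8 in g1, and 79.4 and 123 in g2. g2 replicate 2 was the highest library and 2 of the g1 libraries the lowest, and no comparison was called, with -0.40 (SE 0.18, adjusted p = 0.118) for g1 and 0.03 (SE 0.20, adjusted p = 0.937) for g2. In the fit without the filter the other 4 untested members were not called either.

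The libraries of the guides were set against each other directly in the 3-group fit. Of 34 members 2 were lower in g2 than in g1 and 1 was higher, against 2.74% and 1.81% of all tested genes (4.55% in either direction). SMPD1 was lower in g2, by -1.66 (95% interval -2.58 to -0.75, adjusted p = 0.0385), and ACP2 by -1.33 (95% interval -1.92 to -0.74, adjusted p = 0.0125). GUSB was higher in g2, by 1.12 (95% interval 0.65 to 1.59, adjusted p = 0.00944). The SMPD1 difference was lost without gCtl replicate 2, g1 replicate 1, g1 replicate 2, g1 replicate 3, g2 replicate 1 or g2 replicate 2 (log2 fold changes -1.81 to -1.60, adjusted p 0.0556 to 0.103), the ACP2 difference without g1 replicate 1 or g2 replicate 1 (log2 fold changes -1.19 to -1.13, adjusted p 0.0529 to 0.0534), and the GUSB difference without g2 replicate 2 (0.62, adjusted p = 0.128) or with pseudogene counts added (0.71, adjusted p = 0.052). For MANBA the difference was 0.95 (95% interval 0.35 to 1.56, adjusted p = 0.0666) and for LAMP1 -0.65 (95% interval -1.06 to -0.24, adjusted p = 0.0666), both short of the threshold. The other members called with a single guide had differences between the guides that were not called, SGSH at 0.80 (95% interval -0.12 to 1.73, adjusted p = 0.308) and PPT1 at 0.76 (95% interval 0.16 to 1.35, adjusted p = 0.13) among them, so they are not shown to differ between the guides.

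Other lysosomal genes were counted by list. Of the V-ATPase, the proton pump that acidifies the lumen, 5 of 18 tested genes were called lower in the knockdown comparison and 0 higher, where 11.1% of all tested genes were lower and 8.1% higher. Of further hydrolases and their cofactors 6 of 23 were lower and 2 higher. Of genes for TFEB's family and mTORC1 at the lysosome 5 of 20 were lower and 2 higher, of other membrane proteins 3 of 19 and 1, of mannose 6-phosphate and endosomal sorting 2 of 18 and 1, and of autophagy 1 of 18 and 1. Together 22 of 116 (19%) were lower and 7 higher, with a median fold change of -0.08. By list the median was -0.44 for further hydrolases, -0.30 for the V-ATPase and -0.07 for sorting. It was above 0 for autophagy (0.02), for the other membrane proteins (0.12) and for TFEB's family and mTORC1 (0.18). The shares lower were 11.1% for sorting, 15.8% for the other membrane proteins and 5.56% for autophagy, near or under that over all tested genes for the first and the last.

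The genes below had the lowest adjusted p among those called in their list and direction. ATP6V1C2, a pump subunit, was lower, at 104 ± 26.02 CPM in gCtl and 48.3 ± 15.2 in the knockdown libraries (SD, n = 5 each), a fold change of -1.11 (SE 0.22, adjusted p = 0.003). Among sorting genes AP1M2, the epithelial mu subunit of the AP-1 adaptor, was at 41.2 ± 11.5 and 11.7 ± 3.402 CPM (-1.81 (SE 0.24, adjusted p = 0.000173)), while its ubiquitous counterpart AP1M1 was higher, at 114 ± 7.89 and 175 ± 21.1 (0.62 (SE 0.12, adjusted p = 0.00282)). Among further hydrolases the carboxypeptidase-like CPVL was higher (0.81 (SE 0.23, adjusted p = 0.0206)). CPVL was called with g2 (1.34, adjusted p = 7.69e-05) and not with g1 (0.31, adjusted p = 0.175). It was also called higher in g2 than in g1 (1.03, adjusted p = 0.00578). Among the other membrane proteins LAPTM4A was lower, at 112 ± 19.2 and 38.5 ± 9.71 CPM (-1.54 (SE 0.19, adjusted p = 0.0001)), while OSTM1, partner of the chloride exchanger CLCN7, was higher (0.68 (SE 0.22, adjusted p = 0.0375)). OSTM1 was called with g2 (1.01, adjusted p = 0.00686) and not with g1 (0.41, adjusted p = 0.204), and its difference between the guides was not called. LAMTOR1, the anchor of the Ragulator complex, was lower (-1.002 (SE 0.15, adjusted p = 0.000481)), and FNIP2, a folliculin partner, higher (0.65 (SE 0.17, adjusted p = 0.0128)). In the autophagy list GABARAPL2, an ATG8 protein, was lower (-1.12 (SE 0.18, adjusted p = 0.000756)) and the cargo receptor OPTN higher (0.89 (SE 0.20, adjusted p = 0.00518)).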

How the data were processed

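The authors prepared QuantSeq 3' libraries from polyadenylated RNA of Caco-2 cells and assigned single-end reads to GENCODE transcripts with kallisto (version 42.5 per the labels' processing notes). They deposited estimated counts per transcript for each of the 10 libraries, not normalized and not pooled. The strand setting and quality filters are not given in the sources used here.

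Here expected counts were summed per gene and rounded, and RPM and TPM were computed from them. Protein-coding genes that exceeded 3 RPM in 20% of libraries or more (11640) were tested with edgeR 4.0.16 (glmQLFit and glmQLFTest, TMM) in R 4.3.3, adjusted by Benjamini-Hochberg over these genes. The libraries labelled g1 and g2 were taken as 1 group of 5 against 5 gCtl, and in a second fit as separate groups. The thresholds (1.5-fold, adjusted p of 0.05) and the filter follow the study's methods. Replicates are numbered in the order of the samples, since the labels give no number. The 39 members and the other lists were chosen with earlier results of these data known. All 39 are accounted for, and full values are given for those called in any comparison and for TFEB, GNPTAB, LAMP1, LAMP2, CTSD and GRN.

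On simulated data with 200 genes changed 3-fold among 11640, the test recovered 94% in the knockdown comparison, 88.5% with g1 and 83% with g2, and 70.5%, 59% and 52.5% of 2-fold changes. The changed genes were drawn at random over all levels, with the same change in both guides. These rates need not hold for members with few counts or for changes that differ between the guides. One count is worth under 1 RPM at totals of 3838803 to 8730468, and the common biological coefficient of variation was 23.8% in the 2-group fit. Alternatives were DESeq2 1.42.0, limma 3.58.1 on log2(RPM + 1) and log2(RPM + 0.1), other scalings and filters, glmTreat, no fold minimum, a transcript-length trend removed, pseudogene counts added, and each library left out. Promoters were taken from RefSeq (GRCh38.p14) and gene positions from GENCODE 29 (GRCh38), and CACGTG was searched, alone and with GT before and AC after it, in 300 bases per promoter. Not every gene that the naming rule chose is reported here.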

Additional observations from a re-analysis of the deposited data

Results flagged for a closer look

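Among the 39 members tested for a stray library within the 5 gCtl libraries, 2 had one, about as many as a rate of 1 in 20 gives. LAMP1 was highest in gCtl replicate 5 at 547 CPM, against 389 to 425 in the others. LAMP2 was lowest in gCtl replicate 2 at 79.2 CPM, against 94.8 to 96.3.

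For 3 members the test of g2 against g1 passed the thresholds. The log2 difference was 1.12 for GUSB, -1.66 for SMPD1 and -1.33 for ACP2. The g2 libraries also held 12.0 and 16.8% mitochondrial counts, and the part of this in the differences was not tested.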

How the results depend on the processing

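No paired analysis was possible because the labels give no replicate numbers. The members called in the knockdown comparison stayed within 1.5 times of 12 under every alternative but glmTreat against a fold of 1.5, which left 4 (SGSH, FUCA1, GAA and CTSA), 2 with g1, 6 with g2 and 0 between the guides. Between the guides, 5 members were called by DESeq2, with library totals, and by limma with either pseudocount. Leaving out 1 library gave 10 to 13 calls for knockdown, 8 to 13 for g1, 8 to 14 for g2 and 1 to 5 between the guides. The g2 count was lowest, 8, without g2 replicate 2, and the count between the guides was 1 without g1 replicate 1 or g2 replicate 2 and 5 without g2 replicate 1. With g2, limma with either pseudocount called 19 and library totals 18.

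Library totals, in place of TMM, moved the median of all genes to -0.16 with g2 and -0.07 in the knockdown comparison, and the share of lower among all calls from 51.6% to 73.3% and from 57.8% to 69.4%. The members' median with g2 was then -0.66.

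Among values not called in the main test, MANBA with g2 (0.04) was -0.14 with library totals, -0.015 with all biotypes, -0.11 and -0.11 with limma at pseudocounts of 1 and 0.1, and -0.071 with the length trend removed. GNPTAB with g2 (0.03) was -0.16, -0.049, -0.19, -0.19 and -0.12 in the same order, and -0.00017 without the filter. GUSB with g1 was 0.017 with pseudogene counts added, and ACP2 with g1 0.0059 with the length trend removed. With a library left out, MANBA with g2 ranged from -0.21 to 0.24, GNPTAB with g2 from -0.33 to 0.27, and with g1 ACP2 from -0.19 to 0.083, NEU1 from -0.26 to 0.084 and LAMP1 from -0.15 to 0.046. The cause was not tested.

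With the length trend removed, the calls of GLA and SMPD1 with g1 (-0.80 and -0.76, adjusted p = 0.0842 and 0.0903), NEU1 and GRN with g2 (-0.61 and -0.51, adjusted p = 0.0589 and 0.218) and ASAH1 for knockdown (-0.57, adjusted p = 0.0424) were lost. Depth limits the members with few counts, such as TFEB, with 1 to 11 per library. With 2 libraries, g2 rests on each of them.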

Other observations

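GAA and SGSH, both lower in the knockdown libraries, lie 86837 bases apart on chromosome 17. The tested genes between them were EIF4A3, with a log2 fold change of -0.57 (adjusted p = 0.2), and CARD14, with -0.67 (adjusted p = 0.072), neither called. SMPD1 and TPP1 lie 217765 bases apart on chromosome 11, with log2 fold changes of -1.35 for SMPD1 and 0.001 for TPP1 in the knockdown comparison. Of the 6 tested genes between them APBB1 had the most negative estimate at -0.92 (adjusted p = 0.0574), and TAF10 was at 0.46 (adjusted p = 0.0276), under the fold minimum, both in the knockdown comparison. With g2 APBB1 was at -1.49 (adjusted p = 0.0236). These genes were chosen for their position after the values of the members were seen.

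Further genes of the V-ATPase called lower in the knockdown comparison, named after their values were seen, were ATP6AP1 at -0.99 (SE 0.20, adjusted p = 0.00317), ATP6V1E1 at -0.70 (SE 0.18, adjusted p = 0.0133), ATP6V1F at -0.97 (SE 0.27, adjusted p = 0.0191) and ATP6V0E2 at -1.38 (SE 0.44, adjusted p = 0.0324). ATP6V1F and ATP6V0E2 were called with g2 and not with g1 (adjusted p = 0.0736 and 0.128). Ragulator and Rag genes that tether mTORC1 to the lysosome were called in both directions, with RRAGA at -1.51 (SE 0.28, adjusted p = 0.00193), LAMTOR2 at -1.67 (SE 0.47, adjusted p = 0.019) and LAMTOR4 at -0.73 (SE 0.23, adjusted p = 0.0338) lower and RRAGD at 1.64 (SE 0.49, adjusted p = 0.0235) higher. LAMTOR2 was low, at 5.17 ± 1.44 CPM in gCtl and 1.65 ± 1.06 in the knockdown libraries. RRAGD was at 3.24 ± 1.72 and 10.2 ± 7.75 CPM. At such levels, passing the filter may rest on the group in which each was higher. RRAGD and LAMTOR2 were called with g1 and not with g2 (adjusted p = 0.384 and 0.0921). LAMTOR4 was called with g2 and not with g1 (adjusted p = 0.111). MITF, a relative of TFEB, was at 12.02 ± 1.24 CPM in gCtl and 6.47 ± 0.907 in the knockdown libraries, with -0.88 (SE 0.22, adjusted p = 0.00977). TFEC, another relative, went the other way and was not called. It was at 42.0 ± 5.15 and 55.0 ± 9.51 CPM, with 0.39 (SE 0.15, adjusted p = 0.0767).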
